A study of Homo sapiens with 4 samples.

Results

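Chromosome 5 carried 1779 of the 38563 RNA polymerase II (Pol II) peaks of a control library from U2OS cells and 1271 of the 27913 peaks of a library made after knockdown of NKAP, or 4.61% and 4.55% of each list. The members described here are all of these peaks, 3050 of 66476 over both lists. The chromosome was selected on a measured value: many of the strongest gene ends with a Pol II peak in the control list and none in the knockdown list lie on it. Peak strength and presence in the control against the knockdown list are therefore descriptions with no test, and they support nothing about the chromosome.

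Pol II was profiled by chromatin immunoprecipitation and sequencing (ChIP-seq), in which DNA crosslinked to a protein is pulled down with an antibody and sequenced. U2OS is a human osteosarcoma cell line. For 48 h the cells were exposed to an siRNA labelled NC, taken here as the control, or to one targeting NKAP, and then crosslinked with 1% formaldehyde for 10 min. Each siRNA had 1 Pol II ChIP library and 1 input library, and 1 peak list per ChIP library was analysed here. With 1 library for each siRNA no difference had a replicate check, no test of the conditions was made, and an effect of the siRNA cannot be told apart from a difference between 2 libraries. Both groups are the same cell line, and an siRNA lowers a transcript for a time without removing its gene. Pol II at a gene does not show whether its transcript was depleted, so the peak lists do not check the knockdown.

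Pol II transcribes protein-coding genes. It gathers just downstream of a start site before it is released into the gene, and it slows again past the end of the gene, so both ends of an active gene can carry a peak while the interior holds moving polymerase. NKAP binds RNA in the nucleus, has a known role in splicing, and represses Notch target genes together with the histone deacetylase HDAC3, whose own gene lies on chromosome 5.

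A peak is described here by its fold, which is its height over the local background, and by the reads at its summit. Fold and p-value are the authors' own, written by the peak caller, and they rank peaks within 1 list only. The summit reads were recovered from fold and p, and came out whole, within 0.01 of a read, for every chromosome 5 peak of each list. From the caller's background, the depth of the knockdown library was 0.857 of the control's, and that of its peak calling was 0.793. A peak of chromosome 5 had a median of 17.0 reads in the control list (from 8 to 199) and 18.0 in the knockdown list (from 8 to 182). The local background differed between the lists at some genes, so reads are printed beside folds.

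Upstream sequences of 6 genes are shown first, because they span the patterns described below. DUSP1, RPS14 and EGR1 carried start peaks in both lists, NEURL1B and ADAMTS12 in the control list only, and CSF2 in the knockdown list only. Each sequence is the 250 bases before the annotated start in RefSeq (GRCh38.p14), printed from 5′ to 3′ on the gene's own strand. They lie at chr5:172771196-172771445 (DUSP1, minus strand), chr5:150449740-150449989 (RPS14, minus), chr5:138465229-138465478 (EGR1, plus), chr5:172641013-172641262 (NEURL1B, plus), chr5:33891991-33892240 (ADAMTS12, minus) and chr5:132073539-132073788 (CSF2, plus). Capitals mark matches on either strand to TATAAA, to CCAAT or to GGGCGG, the core of a GC box.
DUSP1: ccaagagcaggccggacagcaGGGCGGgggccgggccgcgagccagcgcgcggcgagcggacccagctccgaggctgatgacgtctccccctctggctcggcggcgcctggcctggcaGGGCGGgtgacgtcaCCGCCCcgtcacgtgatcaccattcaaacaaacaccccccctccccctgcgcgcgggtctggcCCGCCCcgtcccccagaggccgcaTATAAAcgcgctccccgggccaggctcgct
RPS14: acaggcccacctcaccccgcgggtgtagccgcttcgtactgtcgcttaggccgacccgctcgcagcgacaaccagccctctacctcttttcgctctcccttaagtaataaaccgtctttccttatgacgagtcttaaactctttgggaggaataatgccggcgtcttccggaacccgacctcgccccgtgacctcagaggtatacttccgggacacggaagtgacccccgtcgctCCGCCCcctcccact
EGR1: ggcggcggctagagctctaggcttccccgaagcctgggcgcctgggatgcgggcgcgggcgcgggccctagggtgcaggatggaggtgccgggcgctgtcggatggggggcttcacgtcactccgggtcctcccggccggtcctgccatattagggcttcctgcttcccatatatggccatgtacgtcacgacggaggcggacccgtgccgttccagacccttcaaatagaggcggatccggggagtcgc
NEURL1B: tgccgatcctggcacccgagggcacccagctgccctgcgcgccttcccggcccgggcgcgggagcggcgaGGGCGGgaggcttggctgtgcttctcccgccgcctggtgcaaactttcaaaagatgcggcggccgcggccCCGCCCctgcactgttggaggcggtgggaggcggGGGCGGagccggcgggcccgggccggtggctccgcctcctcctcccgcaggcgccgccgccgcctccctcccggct
ADAMTS12: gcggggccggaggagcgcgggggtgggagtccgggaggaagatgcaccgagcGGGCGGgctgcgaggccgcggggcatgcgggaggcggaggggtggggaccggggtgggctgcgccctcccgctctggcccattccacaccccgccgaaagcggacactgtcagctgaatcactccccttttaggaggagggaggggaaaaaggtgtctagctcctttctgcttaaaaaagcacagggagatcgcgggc
CSF2: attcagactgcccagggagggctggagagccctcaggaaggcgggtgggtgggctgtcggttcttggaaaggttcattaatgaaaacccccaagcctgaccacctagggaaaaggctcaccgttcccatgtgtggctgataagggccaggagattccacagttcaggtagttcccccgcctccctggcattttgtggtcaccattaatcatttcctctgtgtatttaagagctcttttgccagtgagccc
The DUSP1 sequence held 1 TATAAA and 4 GGGCGG matches in 74.4% G and C, and NEURL1B held 3 GGGCGG matches in 78.4%. CSF2 had no match and 4 CpG pairs, against 32 in NEURL1B and 21 in ADAMTS12. A match is a description of letters and not a binding site.

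Upstream sequence was available for 790 of the 904 protein-coding genes of chromosome 5. Genes with a start peak in both lists were rich in CpG, and genes with none were poor. The median was 22 CpG pairs in 250 bases for 437 genes with a start peak in both lists (quartiles 16 and 29.0), 16.5 for 42 control-only genes (8 and 26.0), 13.0 for 7 knockdown-only genes (5.00 and 28.5) and 6 for 304 genes in neither list (3.00 and 14.0). The quartiles of the 2 single-list groups reached into those of the genes in both lists. GGGCGG was present in 70.5% of the genes in both lists, 52.4% of the control-only genes and 32.2% of the genes in neither, against 54.4% of all 790. TATAAA was present in 13.5% of the genes of neither list and in 1 of the 7 knockdown-only genes (14.3%). It was present in 4.81% of the genes in both, 4.76% of the control-only genes and 8.23% of all. CCAAT was as frequent in genes of both lists (32.3%) as in genes of neither (32.9%), against 32.4% of all. On the other autosomes the median CpG count was 22 for genes in both lists, 18.0 for control-only, 21.0 for knockdown-only and 5.00 for neither. Of all their promoters 9.36% held TATAAA, while 34.2% held CCAAT and 56.4% GGGCGG.

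Along the chromosome, Pol II peaks were unevenly spread, and fewer of them were called in the knockdown list in most stretches. In 37 bins of 5 Mb, counted from the end of the short arm, 34 held fewer knockdown than control peaks and 3 held more. Bin 36 (175 to 180 Mb) was the fullest, with 158 control and 133 knockdown peaks over 72 protein-coding genes. Its strongest control gene end belonged to HNRNPAB, an RNA-binding protein of the hnRNP family. The 5 fullest bins together held 508 control peaks, 28.6% of those on the chromosome, and 27.9% of the knockdown peaks.

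**Figure D1:**
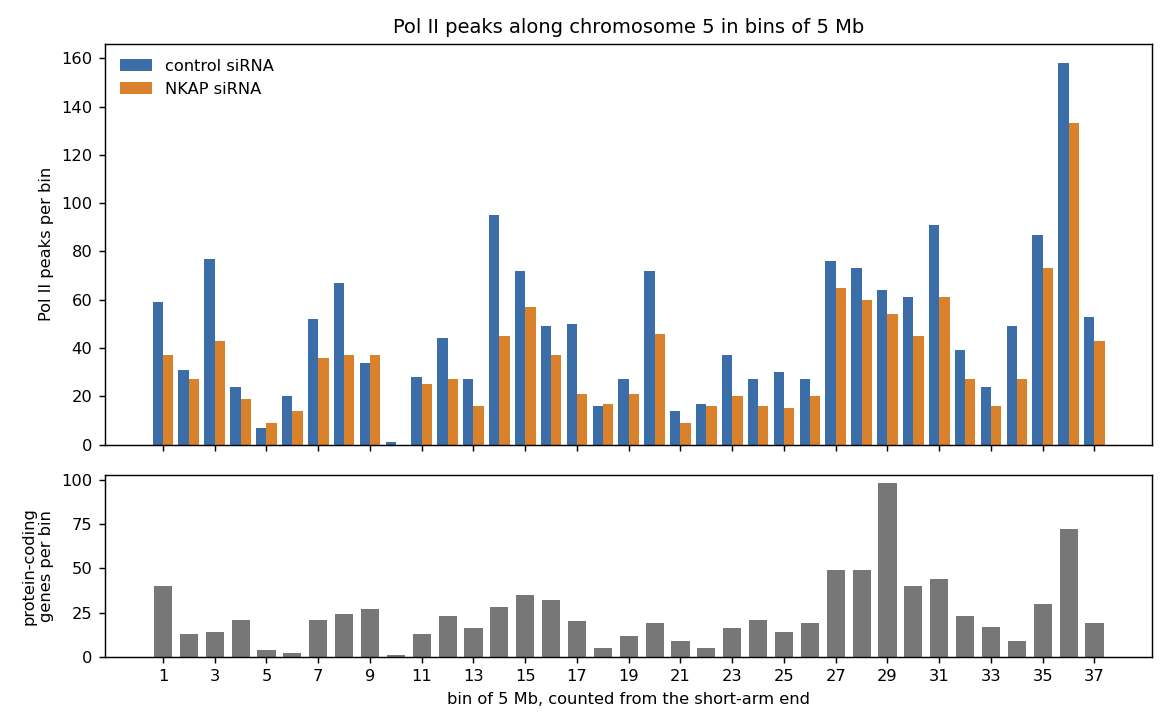
Upper panel, number of control (blue) and NKAP siRNA (orange) Pol II peaks whose summit lies in each 5 Mb bin of chromosome 5; lower panel, number of protein-coding genes in the same bins. Bin 36 holds the most peaks in both lists, and bins 5, 9 and 18 hold more knockdown than control peaks.

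Among bins with at least 20 control peaks, the ratio of knockdown to control peaks was highest in bin 9 and lowest in bin 17. Bin 9 (40 to 45 Mb) held 34 control and 37 knockdown peaks, a ratio of 1.09, and includes the ends of PAIP1, a translation factor that binds poly(A)-binding protein, and of the ribosomal protein gene RPL37. Bin 17 (80 to 85 Mb) held 50 and 21 peaks, a ratio of 0.420. RPS23, another ribosomal protein gene, had its strongest gene end and was present in both lists, and the bin also contains EDIL3. Bin 14 (65 to 70 Mb), led by ERBIN, held 95 and 45 peaks. Over the 32 bins with at least 20 control peaks the median ratio was 0.696, against 0.725 over 447 such bins of the other autosomes, where it ran from 0.348 to 1.64. The bins of chromosome 5 thus lay inside the range of the other autosomes. The surplus of control peaks depended on the lists' lengths: with both lists shortened to the same number of strongest peaks, 19 bins held fewer knockdown peaks and 16 held more.

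Of the control peaks on chromosome 5, 840 of 1779 had no overlapping knockdown peak (47.2%, 95% Wilson interval 44.9 to 49.5), where the share over chromosomes 1 to 22 and X was 45.8%. In the other direction 234 of 1271 knockdown peaks had no control peak (18.4%, 16.4 to 20.6), against 17.2% over all chromosomes used. Wilson intervals here cover counting error only, and neighbouring peaks are not independent. Both shares lay near those of the other chromosomes. Single-list control peaks were narrow and low: their median width was 412 bp with 14.0 reads, against 1248 bp with 29.0 reads for overlapped ones. Among 782 peaks that met exactly 1 peak of the other list, the knockdown peak was narrower in 78.3% (79.0% on the other autosomes). Their median reads were 28.5 in the control and 22 in the knockdown list, with a median ratio of 0.792 (0.808 elsewhere), beside a library depth ratio of 0.857.

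Overlap differed by position in the gene. For 432 control peaks, the summit lay within 1000 bp of an outer gene end and of an annotated start, possibly of different genes. Of these, 86.8% had an overlapping knockdown peak (83.3 to 89.7). The share was 52.7% of 112 at other gene ends, 34.8% of 618 in gene interiors (31.1 to 38.6) and 50.5% of 327 intergenic peaks. On the other autosomes these shares were 89.8%, 59.4%, 38.5% and 49.2%. The classes are mixed: ends of genes without an annotated start count as other gene ends, unless the summit is near another gene's start. Starts inside a gene record can count as gene interior. Knockdown peaks at gene starts were met by a control peak in 97.0% of 403 cases. Control summits near a start lay a median of 53.0 bp downstream of it, with quartiles of -55.2 and 154 bp, and knockdown summits 36.0 bp, with quartiles of -78.2 and 155 bp. On the other autosomes the medians were 43.0 bp in the control and 46.0 bp in the knockdown, in the opposite order.

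The strongest gene ends of chromosome 5 were held in both lists. DUSP1, an immediate early phosphatase that switches off MAP kinases, had 167 reads and a fold of 58.5 in the control and 110 reads and a fold of 51.1 in the knockdown. Its control peak, chr5:172764850-172773337, was 8488 bp wide and covered the whole gene, which has 3100 bp, and the knockdown peak was 5309 bp wide. NPM1, which encodes the nucleolar protein nucleophosmin, followed with 134 reads in the control and 84 in the knockdown. PAIP1 had 125 and 78 reads. PDLIM7, a cytoskeletal adaptor gene, had 121 and 66. At HNRNPAB the folds were 62.1 and 15.4 while the reads were 132 and 99, over local backgrounds of 1.14 and 5.00 reads. The fold difference at HNRNPAB thus lay mostly in the background. Among the 10 highest knockdown folds were also ZSWIM6, with 68 control and 76 knockdown reads, and G3BP1, a stress granule protein gene, with 100 and 66.

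Summit reads at gene ends were lower in the knockdown list at most genes. For 404 distinct pairs of overlapping gene-end peaks (486 genes), the knockdown peak had fewer reads in 343, more in 53 and as many in 8, a share of 84.9% with fewer (81.1 to 88.1) against 84.3% on the other autosomes. Median reads were 39.5 in the control and 30.0 in the knockdown, and the median ratio was 0.765 (0.773 elsewhere), with 10% of pairs under 0.589 and 10% above 1.05. These reads are not adjusted for depth, and the library depth ratio was 0.857. The genes at either end of this order were named after their values were seen, among 356 genes with at least 30 reads in either list. EDIL3, an extracellular matrix protein that binds integrins, was lowest, with 74 control and 16 knockdown reads. DAB2, an endocytic adaptor gene, had 58 and 24. At the other end, ITGA2, which encodes the collagen-binding integrin subunit alpha 2, had 19 control and 33 knockdown reads. EGR1, an immediate early transcription factor, had 39 and 55, and GALNT10, a glycosyltransferase gene, had 41 and 56.

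**Figure D2:**
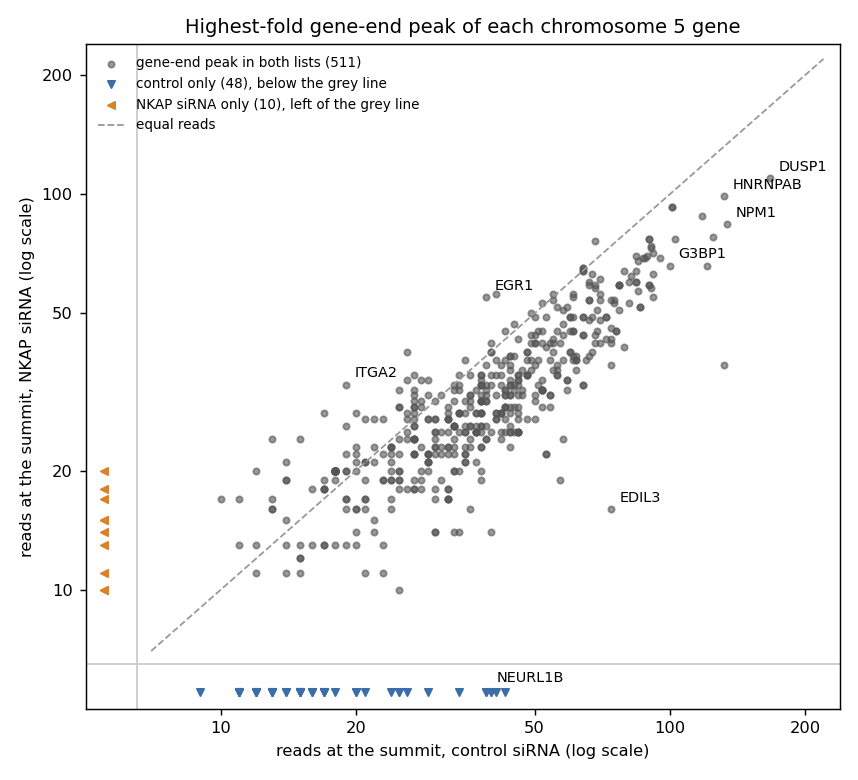
Reads at the summit of the highest-fold gene-end peak of each protein-coding gene of chromosome 5, control siRNA on the horizontal and NKAP siRNA on the vertical axis, both on log scales; genes found in 1 list only stand beyond the grey lines. Most of the 511 genes found in both lists lie under the dashed line of equal reads, EDIL3 lies far below it at 74 and 16 reads, and EGR1 and ITGA2 lie above it. Reads are not adjusted for depth, and the library depth ratio was 0.857.

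A gene end was counted as occupied when a peak touched the 1000 bp on either side of either end of the gene. By this rule 511 of the 904 protein-coding genes were occupied in both lists and 335 in neither, while 48 were control-only and 10 knockdown-only. The ends are the outer ends of the gene record, and an annotated start can lie inside it: among the genes with upstream sequence, 9 counted in neither list had a peak at their annotated start in both lists and 5 in the control list only. The 48 were 8.59% of the 559 genes occupied in the control (6.54 to 11.2), where the share over all chromosomes was 8.11%. The 10 were 1.92% of the 521 occupied in the knockdown (1.05 to 3.50), against 2.58%. Both shares lay near those of all chromosomes. Of the genes occupied in the control, 91.4% were also occupied in the knockdown, the 6th lowest share of the 22 autosomes, which ran from 89.2% on chromosome 19 to 94.4% on chromosome 2. The values that chose the chromosome are the highest folds. Of the 10 control-only genes of highest fold genome-wide whose summit lay in the window and that had no knockdown peak within 5000 bp of either end, 5 lie on chromosome 5, from 4 distinct peaks. It holds 7 of the top 20, 8 of the top 50 and 32 of all 647 such genes (4.95%), where 4.53% of all genes lie on it. The same order for knockdown-only genes had none of its top 20 there and 7 of 190 in all.

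The leading control-only gene is NEURL1B, an E3 ubiquitin ligase gene that acts on Notch ligands. Its peak, chr5:172640416-172642176, had a fold of 16.7 and 39 reads, with a summit 365 bp outside the start printed above, and the knockdown peak nearest to either gene end lay 42032 bp away. ADAMTS12, a secreted metalloproteinase gene, carried a peak at chr5:33891262-33893289 with a fold of 16.3 and 34 reads, and its ends were 41492 bp or more from any knockdown peak. The divergent genes YIPF5, a membrane protein of the early secretory pathway, and KCTD16, an auxiliary subunit of GABA-B receptors, shared 1 peak with a fold of 13.7 and 40 reads. The ends of YIPF5 were 235857 bp or more from a knockdown peak. LOC124901141, a predicted gene, had a fold of 13.8 and 41 reads, CDO1, which degrades cysteine, 12.1 and 25, and C1QTNF2, a secreted C1q-related gene, 12 and 26. All of these peaks held more reads than the median chromosome 5 peak of either list. They were picked for high fold, so that is a description only. The fewest reads of a knockdown peak were 8, but a peak needed more where the local background was higher. MYOT, a muscle Z-disc gene, and LOC124900193 had higher folds, 18.7 and 20.5, but did not meet that rule: their control summits lay beyond the window, at 1536 and 1351 bp from the gene end, and knockdown peaks stood 1308 and 1151 bp away.

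Knockdown-only gene ends had a median fold of 5.93 within their list, and the control-only ones 5.99 within theirs. CD74, the invariant chain of antigen presentation, had the highest knockdown-only fold, 7.17, with 18 reads, from a peak 272 bp outside the gene end opposite to its start, followed by MARCHF11, a ubiquitin ligase gene, with 6.93 and 15. CSF2, the growth factor gene also called GM-CSF, had 6.43 and 14, with its nearest control peak 10044 bp away. RGS14, a G-protein regulator gene, had 5.53 and 17. MCTP1, ADCY2 and ESM1 completed the 7 with no control peak within 5000 bp, at folds of 5.26, 4.83 and 4.34. Each of these folds lies below the 7.44 median of the chromosome's knockdown peaks.

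Strong control peaks without a knockdown peak were also found away from gene ends. All control peaks of the genome were put into 10 strength groups of equal size by p, and the upper 3 (−log10 p of at least 21.7) held 546 on chromosome 5. Of these, 34 had no overlapping knockdown peak, 6.23% (4.49 to 8.58), against 2.71% (2.42 to 3.05) of 10133 on the other autosomes. At this limit it was the highest share of the 22 autosomes, followed by 5.62% of 160 peaks on chromosome 18. In percentage points the difference from the other autosomes was widest inside genes: 18 of 94 strong interior peaks (19.1%, 12.5 to 28.3) had no knockdown peak, against 6.15% elsewhere, while at gene ends it was 7 of 340 (2.06%) against 0.587%, and in intergenic sequence 7 of 73 (9.59%) against 7.61%. In the knockdown list 1 of 379 strong peaks had no control peak (0.264%, against 0.540% elsewhere), in the interior of NPR3, a natriuretic peptide receptor gene, with 25 reads. These peaks are of the comparison that chose the chromosome, and the shares are given as a description. The value moved with the limit: it was 3.01% of 366 peaks in the upper 2 groups (0.576% elsewhere), and 3.33% of 450 peaks (1.13% elsewhere) once control reads were scaled to the knockdown calling depth, where chromosome 18 ranked above chromosome 5. Chromosome 18 also ranked first in the upper 4 groups, with 12.2% against 11% on chromosome 5.

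**Figure D3:**
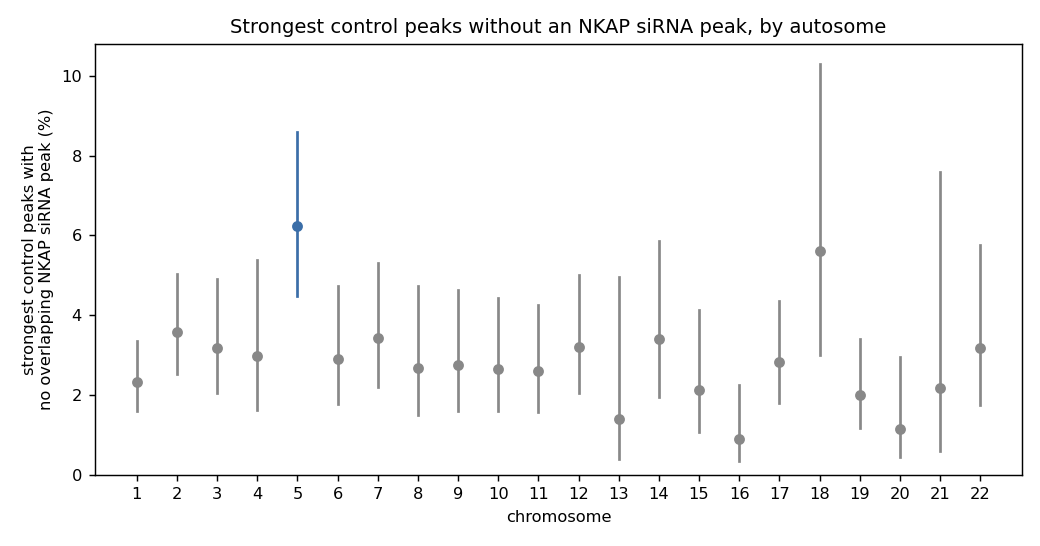
Percent of the strongest control peaks (upper 3 of 10 strength groups) that no knockdown peak overlaps, for each autosome; points are shares and lines their 95% Wilson intervals over peaks. Chromosome 5 (blue) stands at 6.23%, the highest point, and its interval overlaps those of many other autosomes, chromosomes 2, 3 and 4 among them.

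The 34 strong control-only peaks were not gathered at 1 place. They lay in 20 of the 37 bins, with at most 4 in any bin (bin 36), and 24 had no knockdown peak within 10000 bp. Their reads ran from 23 to 43 with a median of 30.0, which equals 25.7 reads at the knockdown library's depth. The strongest, at chr5:126422948-126423969 with a fold of 17.3 and 36 reads, lay inside the record of GRAMD2B, a GRAM-domain membrane protein gene, but over its annotated start, so it is a start peak that the outer ends miss. It was the only 1 of the 18 interior peaks within 1000 bp of an annotated start. Farther from such starts, 17 of 81 strong interior peaks had no knockdown peak (21.0%, 13.5 to 31.1), against 7.18% of 1310 on the other autosomes with annotated starts. CAST, the gene of the calpain inhibitor calpastatin, held 2, the stronger with a fold of 16.2 and 34 reads. TENM2, a teneurin adhesion receptor gene, held 1 at 15.9 and 33 reads, and SLIT3, a secreted guidance factor gene, 1 at 15.3 and 36. MCC, SLC1A3, ADAMTS2 and ZNF608 also held 1 each. The 18 interior peaks fell in 16 genes. Counted per peak, the longest gene around it had a median length of 301 kb, and the nearest gene end lay a median of 65.6 kb away. For the 76 strong interior peaks that the knockdown list shared, these medians were 102 kb and 17.3 kb. Shared interior peaks were also higher, with a median of 41.5 against 29.5 reads, at about the same width (1958 and 1962 bp).

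Inside genes, Pol II peaks covered less sequence in the knockdown list. The interior of a gene was its sequence more than 1000 bp from its ends, in genes of at least 5000 bp. Peaks covered 686 kb of gene interior on chromosome 5 in the control list and 332 kb in the knockdown list, a ratio of 0.484 (0.512 on the other autosomes). Of 400 genes covered in either list, 334 had less covered interior in the knockdown (83.5%, 79.5 to 86.8), where the share over all chromosomes was 84.0%, and 64 had more. With both lists shortened to the same number of peaks the ratio was 0.568, and with the control scaled to the knockdown calling depth it was 0.506. A covered length moves with how much of a region passed the caller's threshold, so it is not an amount of polymerase.

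TENM2 had the largest difference in covered sequence. It spans 1285 kb, lacked a peak at its ends in both lists, and held 26 interior control summits covering 31594 bp and 8 knockdown summits covering 7738 bp. TRIO, a guanine nucleotide exchange factor gene, held 27 and 12 summits over 24450 and 10578 bp, and its highest had 76 control and 42 knockdown reads. EDIL3 held 13 and 2, over 14798 and 1281 bp. ERBIN, a scaffold protein gene, held 22 control summits over 12090 bp and 1 knockdown summit over 225 bp. The ERBIN peaks were low, from 8 to 17 reads with none in the upper 3 strength groups, so most stood near the caller's limit. CAST held 17 and 7 summits over 15414 and 5487 bp. In all 5 genes the knockdown list had fewer summits, and the median summit had between 12 and 16.5 reads in the control.

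EDIL3 differed both at its end and inside. The gene, at chr5:83940554-84384880, had 74 reads and a fold of 35.0 in a control peak of 6439 bp at its higher end, and 16 reads and a fold of 7.91 in a knockdown peak of 853 bp at the same place. A strong control peak of 25 reads with no knockdown peak lay inside the gene, with the nearest knockdown peak 2214 bp away. Others of 28 and 25 reads lay 21379 bp and 301916 bp outside the gene, with knockdown peaks 4643 and 877 bp from them. Local backgrounds at the gene-end summit were 1.14 and 1.00 reads, so the difference lay in the reads and not in the background. In the same bin RPS23 had 88 and 69 reads.

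Covered interior was longer in the knockdown list at 64 genes. ITGA2 led, with no control summit inside the gene and 6 knockdown summits over 2532 bp, from 11 to 16 reads each, beside its higher gene-end reads. HSPA9, the mitochondrial chaperone mortalin, had 531 bp in the control and 2120 bp in the knockdown. MAST4, a kinase gene, had 3170 and 4609 bp, MRNIP, a DNA repair gene, 2356 and 3612 bp, and CCDC69 none and 1207 bp.

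**Figure D4:**
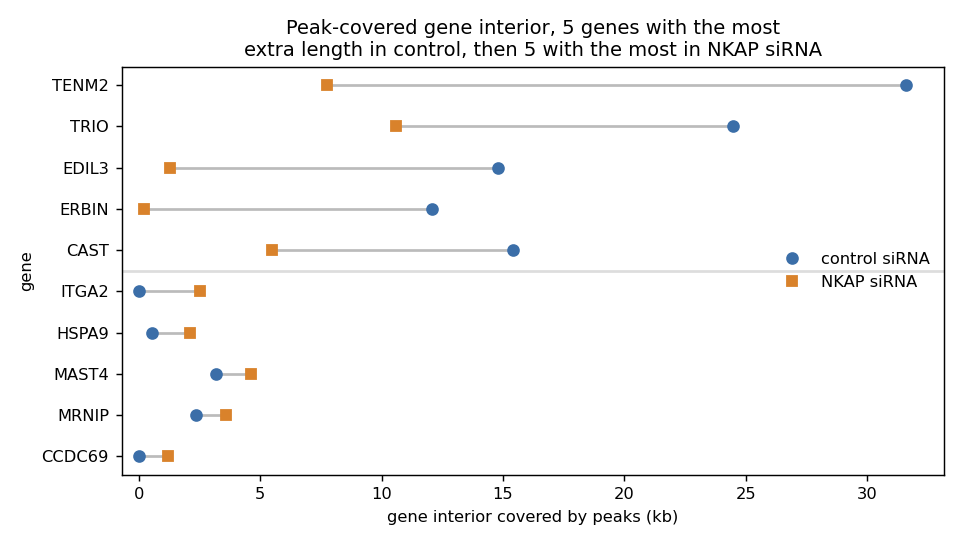
Length of gene interior covered by Pol II peaks in the control (blue circles) and NKAP siRNA (orange squares) list for the 5 chromosome 5 genes with the most extra length in the control and the 5 with the most in the knockdown. TENM2 stands at 31594 and 7738 bp and ERBIN at 12090 and 225 bp, while ITGA2, with the most extra knockdown length, stands at 0 and 2532 bp.

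Intergenic peaks had a median control fold of 6.54, against 13.8 at gene starts and 6.77 at other gene ends. The highest, 22156 bp from FABP6, a bile acid binding protein gene, had 72 control reads at a fold of 25.9 and 55 knockdown reads at a fold of 24.2. An intergenic peak nearest to NDST1 had 58 and 17 reads and was 7248 and 602 bp wide. Others nearest to DNAH5, DRD1 and FOXD1 had 72 and 41, 54 and 25, and 54 and 49 reads. All 5 were overlapped by a knockdown peak. The widest knockdown peak without a control peak, 6605 bp at chr5:91300132-91306736 with 25 reads, lay 66634 bp from ARRDC3, an arrestin-domain gene, and 4051 bp from the nearest control peak.

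Gene lists ordered by role showed housekeeping genes occupied in both lists and genes of other tissues mostly in neither. Over all 904 genes, 511 (both), 48 (control only) and 10 (knockdown only) are the counts to read these against, with median folds of 14.0 in the control and 11.1 in the knockdown. All 22 splicing and RNA-binding genes were in both lists. HNRNPAB, MATR3, a nuclear matrix RNA-binding protein gene with 55 and 56 reads, and SREK1, a splicing regulator gene with 74 and 43, led by control fold. Of 25 ribosome and translation genes 24 were in both, led by NPM1, RPL37 with 118 and 88 reads, RPS23 and RPS14 with 85 and 68, and RPL26L1 was in the control list only by its outer ends, with 21 reads, while its annotated start had a peak in both lists. MRPS36 had no match in the gene table. Of 32 transcription and chromatin genes 28 were in both. NSD1, a histone methyltransferase gene, was in the control list only, at a fold of 3.81 and 18 reads, and MEF2C, TCF7 and ZNF608 were in neither by their outer ends, although the annotated start of MEF2C, inside the gene record, had a peak in both lists. HDAC3 had 25 control and 20 knockdown reads, in a peak shared with RELL2. CDK7 had 21 and 19, and AFF4, a scaffold of the super elongation complex, had 91 and 58.

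Of 31 cell cycle and repair genes 30 were in both and TERT, the telomerase gene, was in neither. CDC25C had 90 and 77 reads in a peak shared with FAM53C, PLK2 had 85 and 57, and LMNB1, lamin B1, had 70 and 42. CCNB1, cyclin B1, had 38 and 33 reads. Covered interior of the list was 22.2 kb in the control and 4.68 kb in the knockdown, beside a ratio of 0.484 over the whole chromosome. It was 33.3 and 15.1 kb for the transcription and chromatin list, 31.2 and 21.4 kb for splicing, 36.2 and 30.2 kb for ribosome and translation, and 25.1 and 17.1 kb for metabolism and stress. All 5 lists had less covered interior in the knockdown, and the ribosome list was nearest to equal. CCNG1, cyclin G1, had 4380 bp of it in the control and none in the knockdown, and PLK2 had 2967 and 165 bp. Metabolism and stress genes were in both lists in 29 of 37 cases and in no single list. ATG10 had 75 and 54 reads, AMACR 91 and 74, and HMGCS1, a sterol pathway gene, 54 and 42.

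Of 23 early response and growth factor genes, 13 were in both lists and 7 in neither, beside 511 and 335 of all 904 genes. Their covered interior was 38.2 kb in the control and 14.2 kb in the knockdown. HBEGF, an EGF-like growth factor, had 55 and 40 reads, and EGR1 (39 and 55) and RASA1 (49 and 50) had more knockdown than control reads. STC2 and FLT4 were in the control list only, with 20 and 15 reads, and RGS14 in the knockdown list only. STC2 had a knockdown peak 1569 bp from the gene, so its absence rests on the window. Of 41 extracellular matrix, adhesion and receptor genes, 21 were in both, 17 in neither and 3, ADAMTS12, ADAMTS6 and NEURL1B, in the control list only. Their covered interior was 112 kb in the control and 39.3 kb in the knockdown. SPARC, the bone matrix protein osteonectin, had 72 and 43 reads at its end and 4960 bp of covered interior in the control and none in the knockdown. FST, follistatin, had 36 and 31 reads and 3975 bp and none. ADAMTS12 had more covered interior in the knockdown, with 1616 and 2749 bp.

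The 53 protocadherin genes lie in clusters that share their ends, and only 2 distinct control peaks served all 23 occupied ones. The gamma cluster had 18 control and 20 knockdown reads at its shared end, and PCDHAC2 was in the control list only with 11 reads.

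Lists of genes of other cell types were read beside the label of the cells, which they cannot establish. Of 22 neuron genes 2 were in both lists (CPLX2, 27 and 31 reads, and DPYSL3, 30 and 17) and 20 in neither. Of 15 liver and muscle genes only F2RL2 was in both and MYOT in the control list, from the peak beyond its end described above. Of 30 immune and blood genes 18 were in neither and 6 in both. The 9 with a control gene-end peak had a median fold of 16.4, against 14.0 over all such genes of the chromosome. IL5 was counted in both through a peak shared with its neighbour RAD50, and IRF1 had 67 and 63 reads. ERAP2, IL4 and TICAM2 were in the control list only with 11 to 13 reads, and CD74, CSF2 and CARD6 in the knockdown list only with 14 to 18. Their part in the single-list counts was not tested.

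**Figure D5:**
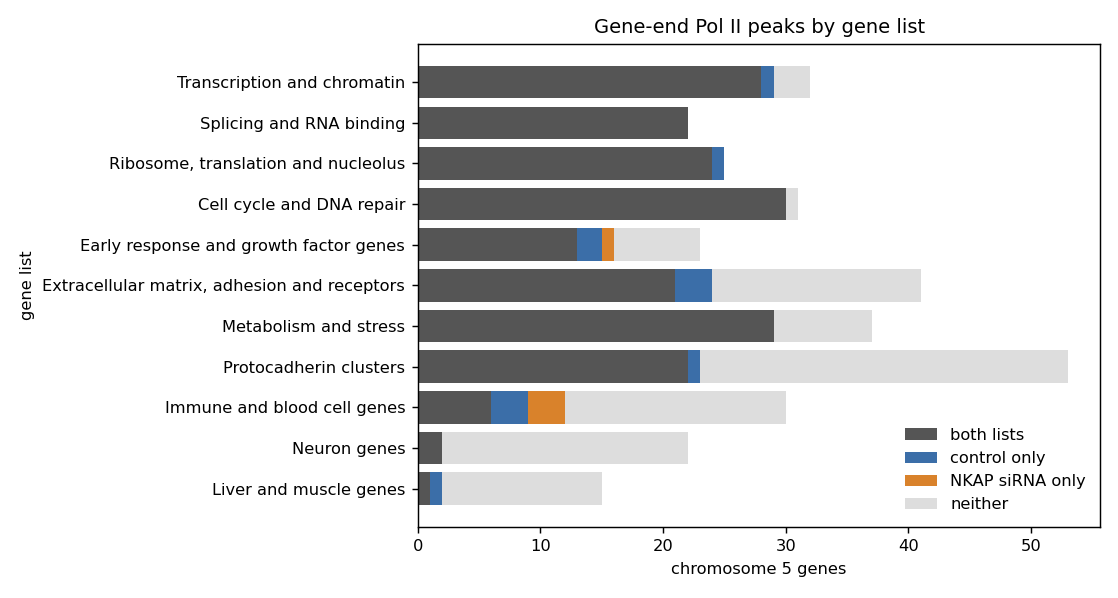
Number of chromosome 5 genes in each list with a gene-end Pol II peak in both peak lists (dark grey), in the control only (blue), in the NKAP siRNA list only (orange) or in neither (light grey). All 22 splicing genes are in both lists, 20 of 22 neuron genes are in neither, and single-list genes are few throughout.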

How the data were processed

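Pol II ChIP-seq peaks of 2 libraries were analysed. The submitters' processing notes name bcl2fastq 2.17 and Trimmomatic 0.33, with Bowtie 1.1.2 and MACS2 2.1.0, and hg38. Not given in the sources used here were tool settings and the background library. Peaks were called per sample: a deposited list holds those of 1 library. Its columns give, per the authors' caller, a score, the fold over background, and the −log10 of the p-value and of the q-value. The deposited score is 10 times the −log10 q. The lists end on chromosome 5 at −log10 q of 3.12 (control) and 3.18 (knockdown), so a region without a peak can hold Pol II below that limit. Positions are those of the lists, counted from 1, with genes and promoters from RefSeq (GRCh38.p14).

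Python 3.11.15, pandas 2.3.3 and scipy 1.17.1 were used. Summit reads and background were solved from fold and p, since the caller's fold is (pileup + 1)/(background + 1) and its p a Poisson tail. The steps were tested on simulated data. Peaks overlapped when they shared 1 bp, and intervals are 95% Wilson intervals. Genes have no strand in the gene table, and starts come from the promoter table, which holds none on chromosome 8. That chromosome was left out of the other autosomes where starts were needed: the overlap shares by position and the split of interior peaks by start. The gene-end, interior and intergenic shares of the strongest peaks include it. Exons and the genome sequence were not used here. Named genes are the 10 of highest fold in each list and status, the 5 with the largest interior differences each way, the genes nearest the 5 strongest intergenic peaks, HDAC3, the leading gene of a bin, and members of 11 lists. Members, lists and rules were chosen with earlier results of these data known.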

Additional observations from a re-analysis of the deposited data

How the results depend on the processing

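Each of the 8 results on chromosome 5 was recomputed under alternatives, 49 values in all. Of these, 28 stayed within the interval or within 1.5 times the reported value and 21 did not. The alternatives for the strongest control peaks were chosen after seeing the data. A change of direction was looked for only in the interior ratio, which stayed below 1. Chromosome 18 ranked above chromosome 5 in some alternatives for the strongest control peaks, as given above. Shortening both lists to the same number of strongest peaks (26387) gave overlaps of 65.2% (control) and 74.4% (knockdown), 30 control-only and 22 knockdown-only genes, 94.3% of control genes kept and 19 bins with fewer knockdown peaks. The strongest 10000 of each list gave 77.8%, 84.9%, 31 knockdown-only genes, 86.9% kept and 22 bins. Scaling the control to the knockdown calling depth gave an overlap of 55.7%, and 3.33% for the strongest control peaks without a knockdown peak, which were 3.01% in the upper 2 strength groups and 11% in the upper 4 (8.24% elsewhere). Requiring 50% of a peak's own width gave 39.3% and 75.2%, and summits within 500 bp 49.5% and 68.9%. Bins of 10 Mb and 2 Mb gave 18 of 19 and 66 of 88 with fewer knockdown peaks. The interior ratio stayed between 0.475 and 0.568. Shorter lists and other bin sizes change these counts by construction; otherwise the cause was not tested. No paired analysis was possible because each siRNA had 1 ChIP library. For the same reason no replicate was left out. Depth limits what a missing peak means: the fewest reads of a chromosome 5 peak were 8 in each list. More were needed where the local background was higher: the knockdown peak of lowest −log10 p, 5.31, had 17 reads. Pol II below the caller's limit was not detectable. Copy number of the chromosome was not analysed here.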

Other observations

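Of the 234 single-list knockdown peaks of chromosome 5, 101 lay in gene interiors and 43 in intergenic sequence. The strongest, inside NPR3, is given above. The strongest after NPR3 lay 56004 bp from UNC5A, a netrin receptor gene, with a fold of 10.2 and 21 reads. AFF4 held 1 with a fold of 9.59 and 20 reads, 40920 bp from the nearest control peak, in a gene whose end had fewer reads in the knockdown. ARHGAP26, a GTPase-activating protein gene, held 1 at 9.35 and 18 reads, with no control peak within 206428 bp. These peaks were named after their values were seen.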
